A study of Mus musculus with 15 samples.

Results

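Colon that lacks Olfm4 was compared with wild type colon. The comparison holds 3 arrays labelled Olfm4 mutant (APC+/+/Olfm4-/-) and 3 labelled wild type (APC+/+/Olfm4+/+), 6 of the 15 arrays of the series, and the arrays were chosen by their genotype label. Gene expression was measured in total RNA of the colon on Affymetrix Mouse430_2 arrays, whose probe sets are groups of short probes for 1 transcript. The mice were males aged 3 months from littermate cohorts, and the labels give their strain background as C57BL/6 and 129 hybrid. A second set of arrays bears on loss of Olfm4 where Apc is also mutated: 3 arrays of APC mutant colon (APC+/-/OLFM4(+/+)) and 3 of tissue beside tumours in double mutant mice (APC+/-/Olfm4-/-), here called adjacent colon. The construct of either mutant allele is not given in the sources used here.

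Olfm4 encodes olfactomedin 4, a glycoprotein secreted in intestinal crypts and stored in the granules of neutrophils. It is known as a marker of crypt base stem cells, is switched on by Notch and NF-kappaB signalling, and has been described as a brake on NF-kappaB activation downstream of NOD1 and NOD2. It has also been described as an inhibitor of cathepsin C and as a protein that binds cadherins and lectins at the cell surface.

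The Olfm4 probe set could not check the genotype. On the log2 scale of the deposited values, which start at 2.56, it read 3.01, 3.14 and 3.07 in the wild type arrays and 2.99, 3.07 and 3.28 in the Olfm4 mutant arrays. Both groups thus lay near the floor and overlapped (log2 difference 0.04, SE 0.10, adjusted p = 0.84). Colon genes were bright in both groups: the carbonic anhydrase Car1 lay from 13.86 to 13.91 in wild type and from 13.68 to 13.76 in Olfm4 mutant arrays, and the keratin Krt20, the mucin Muc2 and E-cadherin (Cdh1) stood above 12 in each of the 6.

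Several arrays stood apart from the rest of their group before any gene was tested. The 3-prime minus 5-prime difference of the 4 added bacterial RNAs, a measure of how evenly RNA was copied, was 1.89, 2.01 and 2.06 in wild type and 2.29, 3.25 and 2.40 in Olfm4 mutant arrays. The groups did not overlap (difference of the means 0.657, exact 2-sided permutation p = 0.1, the smallest that 3 arrays against 3 can give), and Olfm4 mutant replicate 2 was the highest. Without it the mutant mean was 2.34 against 1.99. Gapdh and Actb moved the same way, with Gapdh at 2.76 in replicate 2 against 0.753 and 0.971 in the other mutant arrays and from 0.562 to 0.638 in wild type. The array numbers in the labels run in blocks by group, and the labels do not say what order they stand for.

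**Figure D1:**
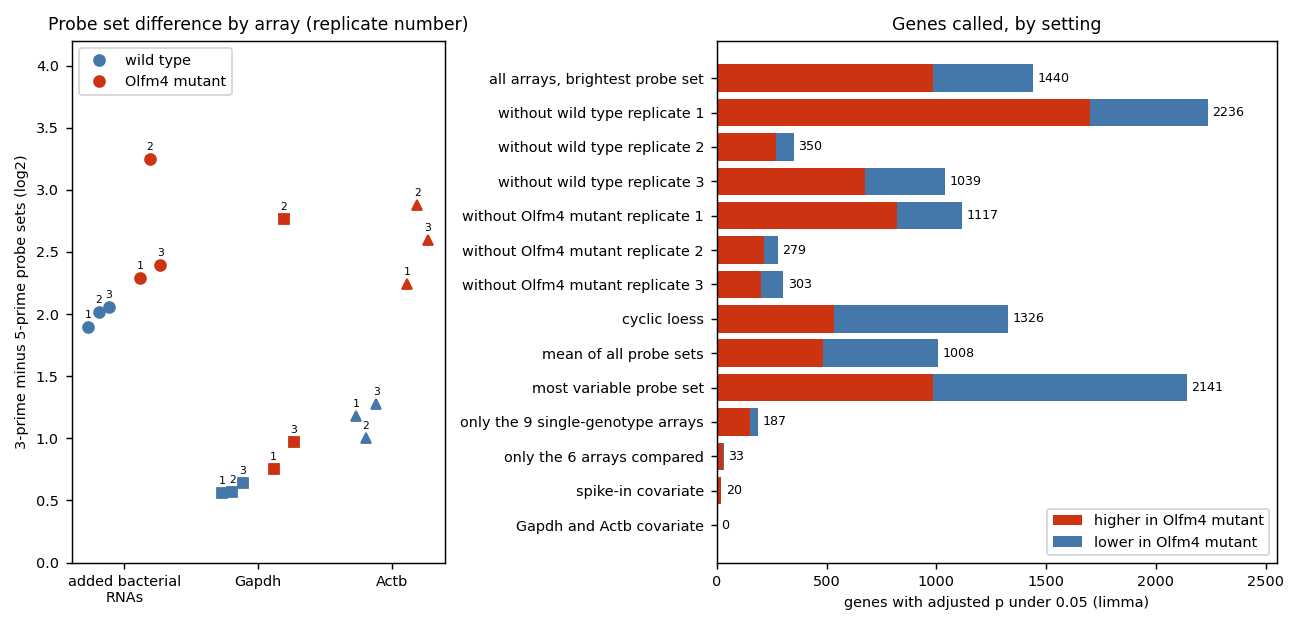
Left: log2 difference between 3-prime and 5-prime probe sets of the added bacterial RNAs, Gapdh and Actb on each wild type (blue) and Olfm4 mutant (red) array, with replicate numbers. Right: number of genes with an adjusted p under 0.05 by limma, higher (red) or lower (blue) in Olfm4 mutant colon, in the model with all arrays and in 13 other settings. Olfm4 mutant replicate 2 has the largest difference in each panel of the left plot, and the count of called genes runs from 0 to 2236.

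Replicate 3 of the Olfm4 mutant has a title number that joins digits of the other two animal numbers. Among 94 genes in which replicates 1 and 2 differed by more than 2 on the log2 scale, replicate 3 lay between them in 93 (98.9%). The same share was 3.70% for replicate 1 and 5.26% for replicate 2, from 36.8% to 88.9% over the wild type arrays and from 54.0% to 83.6% over the APC mutant arrays. The deviation of replicate 3 from an equal mix of its partners had an SD of 0.220 over genes, against 0.331 to 0.616 for the other wild type, Olfm4 mutant and APC mutant arrays. The series' design text gives 3 mice per group, though the adjacent arrays carry 2 animal numbers, and the labels do not say whether replicate 3 is a separate animal. The p-values rest on the spread within the 5 groups over all 15 arrays, tumours included, and that spread may in part be technical. The adjacent and tumour arrays of the double mutant carry the same 2 animal numbers.

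In the limma model 1440 of 18193 genes (7.92%) differed between Olfm4 mutant and wild type colon at an adjusted p of 0.05, and such genes are called below. Of these, 986 were higher (5.42%) and 454 lower (2.5%) in the mutant, and 249 and 121 of them differed by at least 2-fold. The 3 arrays of each group did not overlap in 1429 of the 1440, beside 4920 of all genes (27%). The count depended on single arrays. It was 279 (1.53%) without Olfm4 mutant replicate 2 and 303 (1.67%) without replicate 3. It was 350 (1.92%) without wild type replicate 2 and 2236 (12.3%) without wild type replicate 1. With cyclic loess normalization 1326 genes (7.29%) were called, 533 higher (2.93%) and 793 lower (4.36%), so 40.2% of calls were higher in place of 68.5%. The median difference over all genes was then -0.01 in place of 0.06.

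In all 6 models with 1 of the arrays left out and after cyclic loess, 209 genes (1.15%) were called in the same direction, 161 higher and 48 lower. When the bacterial RNA difference entered the model as a covariate, 20 genes (0.11%) were called, 18 higher (0.0989%) and 2 lower (0.011%), and each was among the 1440 with the same sign. The 1440 genes kept their sign in that model, with a median size of 0.66 in place of 0.81 and a median SE of 0.223 in place of 0.181.

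The gene with the largest rise was Sdr16c6, an oxidoreductase of the short-chain dehydrogenase family to which retinol dehydrogenases belong. Its level was 4.64, 3.81 and 4.43 in wild type and 8.46, 7.24 and 7.98 in Olfm4 mutant arrays. The groups lay far apart, and the difference of 3.60 (SE 0.44, adjusted p = 0.0023) stayed called without each array in turn (adjusted p up to 0.021) and with the bacterial RNA covariate (3.93, adjusted p = 0.044). Sdr16c5, the related neighbouring gene that oxidises retinol, read from 3.14 to 3.20 in wild type and from 3.30 to 3.71 in mutant arrays (0.32, SE 0.19, adjusted p = 0.32). Of the 26 measured short-chain dehydrogenase and retinoid genes Sdr16c6 was the 1 called, with a list median of -0.06. The retinoic acid synthase Aldh1a2 at 1.09 (SE 0.38, adjusted p = 0.096) and the retinol carrier Rbp7 at -1.23 (SE 0.44, adjusted p = 0.099) did not pass.

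Ccnb1ip1, a ubiquitin ligase of meiotic crossover sites, and Ttc5, a cofactor of p53 that also takes part in tubulin mRNA decay, are adjacent genes on chromosome 14, the chromosome of Olfm4. Ccnb1ip1 read 3.96, 3.79 and 4.85 in wild type and 6.23, 6.48 and 6.32 in Olfm4 mutant arrays (2.15, SE 0.38, adjusted p = 0.01). Ttc5 read 5.50, 5.78 and 7.58 in wild type and 8.57, 7.93 and 8.49 in mutant arrays (2.04, SE 0.42, adjusted p = 0.018). Both genes had non-overlapping groups, with wild type replicate 3 nearest to the mutant arrays in each. Ccnb1ip1 stayed called without each array (adjusted p up to 0.045), while Ttc5 reached 0.072. A second Ttc5 probe set, near the floor, stood at 0.06 (SE 0.12).

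The promoters of these 3 genes are printed because Sdr16c6 had the largest rise and Ccnb1ip1 and Ttc5 are neighbours that both rose. Each is a window of 300 bases around the gene start, 5-prime to 3-prime on the minus strand, from RefSeq on GRCm38.p6. They lie at chr4:4077465-4077764 (Sdr16c6), chr14:50795679-50795978 (Ccnb1ip1) and chr14:50785471-50785770 (Ttc5), and capitals mark a match to CCAAT on either strand.
Sdr16c6: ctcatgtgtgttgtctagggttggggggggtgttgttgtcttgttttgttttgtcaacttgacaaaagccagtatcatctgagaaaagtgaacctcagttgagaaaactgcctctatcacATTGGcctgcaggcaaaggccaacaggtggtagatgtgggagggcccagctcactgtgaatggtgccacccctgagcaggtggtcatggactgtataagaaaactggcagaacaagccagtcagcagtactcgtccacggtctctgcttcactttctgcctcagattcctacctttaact
Ccnb1ip1: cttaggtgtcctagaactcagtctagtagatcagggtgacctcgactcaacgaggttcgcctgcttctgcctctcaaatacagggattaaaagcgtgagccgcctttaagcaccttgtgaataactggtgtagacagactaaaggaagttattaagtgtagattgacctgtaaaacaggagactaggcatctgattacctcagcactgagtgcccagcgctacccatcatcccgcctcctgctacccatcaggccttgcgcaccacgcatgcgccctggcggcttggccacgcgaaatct
Ttc5: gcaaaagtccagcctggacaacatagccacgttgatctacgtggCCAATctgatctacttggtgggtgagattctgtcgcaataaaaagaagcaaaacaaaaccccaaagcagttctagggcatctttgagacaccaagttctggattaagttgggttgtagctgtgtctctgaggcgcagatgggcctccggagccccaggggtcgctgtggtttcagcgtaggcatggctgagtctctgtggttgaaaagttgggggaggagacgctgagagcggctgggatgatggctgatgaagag
The TATA box (TATAAA), the CCAAT box (CCAAT), the GC box (GGGCGG) and the E-box (CACGTG) were searched on both strands, and no matches overlapped. CCAAT occurred in Sdr16c6, as its reverse complement ATTGG, and in Ttc5, the other motifs in none of the 3 windows and none of the 4 in Ccnb1ip1. Over 32851 promoters of the same length, 13.6% held the TATA box, 37.4% the CCAAT box, 35.7% the GC box and 7.15% the E-box.

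Other genes rose without overlap between the groups. The expressed sequence AI467606 read 9.14, 10.30 and 9.54 in wild type and 11.92, 11.91 and 11.94 in Olfm4 mutant arrays (2.26, SE 0.26, adjusted p = 0.0023), and its second probe set rose by 2.04. The transcript 4930480K23Rik, on chromosome 14, read 5.68, 4.86 and 6.48 against 7.93, 8.19 and 8.24 (2.45, SE 0.33, adjusted p = 0.0036), while its other, dimmer probe set stood at -0.01. Gp1bb, a chain of the platelet von Willebrand factor receptor, read 6.12, 6.23 and 5.65 against 7.20, 8.44 and 7.98 (1.87, SE 0.28, adjusted p = 0.0053), and its second probe set rose by 1.60. The mutant arrays were nearly equal in AI467606 and spread more in Gp1bb (SD 0.627, against 0.310 in wild type). Each of the 3 genes stayed called without any 1 array.

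Further large rises were those of the sperm adhesion protein Zan (2.80, SE 0.54), the membrane protease Tmprss13 (2.12, SE 0.60), the copper transporter Atp7b (2.03, SE 0.42), the activin receptor Acvr1c (1.85, SE 0.37), Tbc1d24 (1.80, SE 0.37) and the germ cell transcription factor Mybl1 (1.79, SE 0.26). Of these 6 only Mybl1 stayed called with each array left out in turn. The highest adjusted p was 0.054 for Zan, 0.13 for Tmprss13, 0.063 for Atp7b, 0.066 for Acvr1c and 0.081 for Tbc1d24. Zan and Tmprss13 each had 1 wild type array far below the others, and without it Tmprss13 stood at 1.16. Zan read 5.05 in wild type replicate 1 beside 7.59 and 7.29, and Tmprss13 read 7.07 in replicate 2 beside 10.03 and 9.90. All 6 genes also stood above wild type in APC mutant colon, where Olfm4 is intact, though none was called there. Those differences ran from 0.64 for Mybl1 to 1.83 for Tmprss13 and 2.17 for Zan. Adjacent colon stood above APC mutant colon by 0.18 for Zan, 0.73 for Tmprss13 and up to 1.26 for Acvr1c. Mybl1 was steady in both groups, from 4.68 to 4.83 in wild type and from 6.35 to 6.70 in mutant arrays, with an adjusted p of up to 0.026 without any 1 array.

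**Figure D2:**
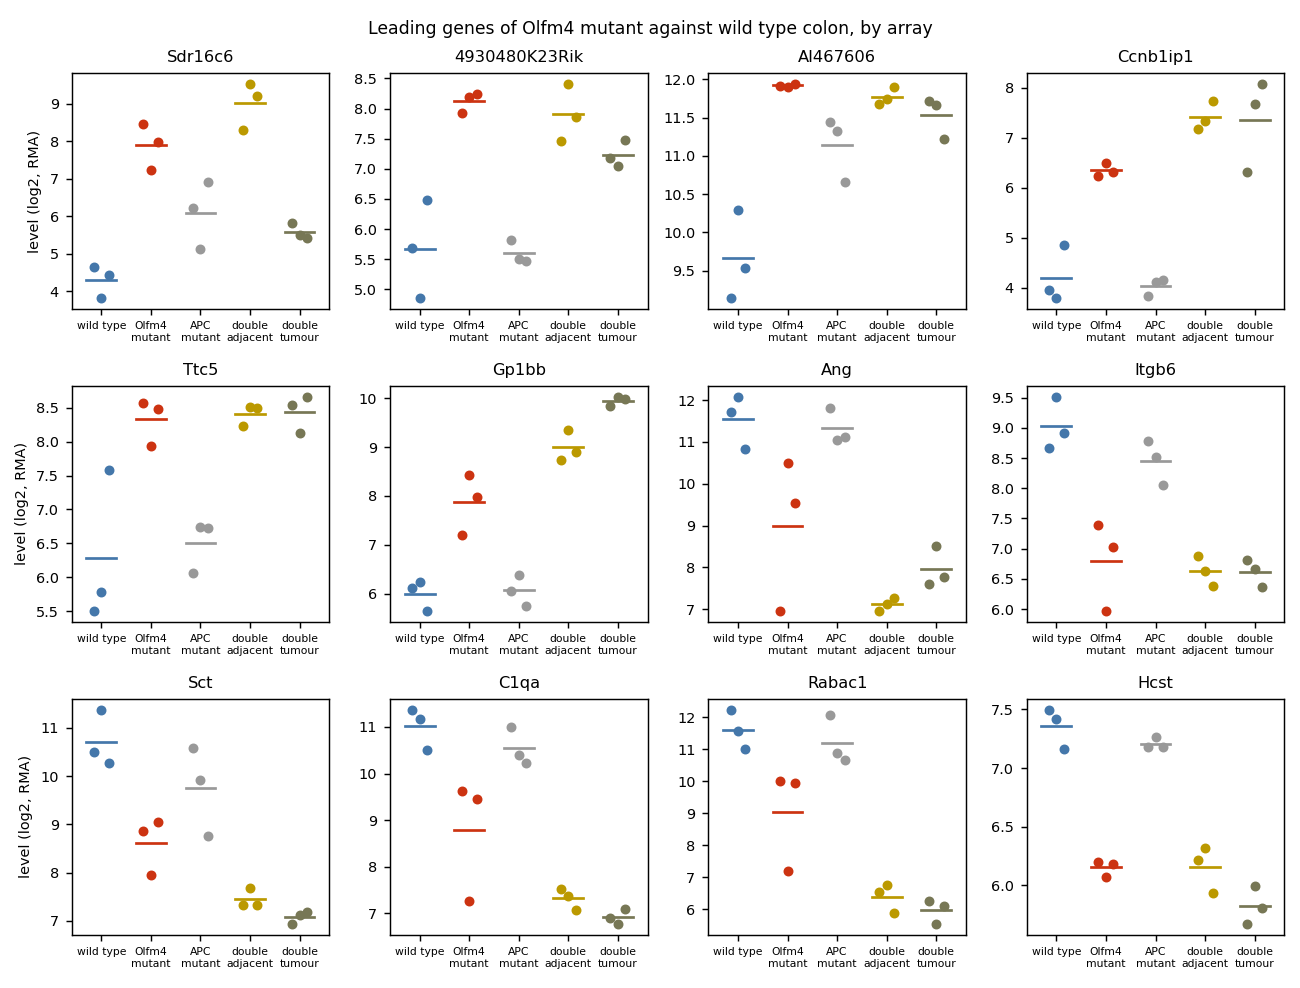
Log2 RMA level of 12 genes on each array (points) and group mean (line) in wild type, Olfm4 mutant, APC mutant, double mutant adjacent and double mutant tumour colon. The 3 Olfm4 mutant arrays lie above the 3 wild type arrays in Sdr16c6, 4930480K23Rik, AI467606, Ccnb1ip1, Ttc5 and Gp1bb and below them in Ang, Itgb6, Sct, C1qa, Rabac1 and Hcst.

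Among the genes that fell was Itgb6, the integrin beta chain with which epithelium activates latent TGF-beta. It read 8.67, 9.51 and 8.91 in wild type and 7.39, 5.97 and 7.03 in Olfm4 mutant arrays (-2.24, SE 0.33, adjusted p = 0.0049, up to 0.024 without any 1 array). Replicate 2 was the lowest mutant array, and the groups did not overlap. Hcst, the adaptor DAP10 of activating receptors on natural killer and T cells, fell by less with less spread. It read 7.50, 7.41 and 7.16 against 6.20, 6.07 and 6.18 (-1.21, SE 0.13, adjusted p = 0.0023) and was still called with the covariate (-1.08, adjusted p = 0.044).

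Ang, which encodes the secreted ribonuclease angiogenin, fell in 3 of its 3 probe sets, with differences of -2.55, -2.74 and -2.06, of which the first 2 are of a type whose probes may also bind other transcripts. The brightest read 11.73, 12.08 and 10.84 in wild type and 6.97, 10.50 and 9.54 in Olfm4 mutant arrays (SE 0.67, adjusted p = 0.038, up to 0.13 without 1 array). The mutant arrays thus spread widely, with replicate 1 the lowest. Its paralog Ang4, an antimicrobial of goblet and Paneth cells at -296 in gene order from Olfm4 with Ang at -305, read 12.38, 14.12 and 13.92 in wild type and 6.70, 14.0045 and 13.67 in mutant arrays. That difference did not pass (-2.02, SE 1.73, adjusted p = 0.52), and mutant replicate 1 stood far below the other 5 arrays.

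Other large falls rested more on mutant replicate 2, the array with the largest bacterial RNA difference. Rabac1, a Rab acceptor of vesicle traffic, read 10.02, 7.21 and 9.94 in mutant against 11.02 to 12.24 in wild type arrays (-2.55, SE 0.64, adjusted p = 0.033), or -1.63 (adjusted p = 0.091) without replicate 2. C1qa, a chain of complement C1q made by macrophages, read 9.62, 7.27 and 9.45 against 10.50 to 11.37 (-2.23, SE 0.48, adjusted p = 0.021). Without replicate 2 it stood at -1.48 (adjusted p = 0.029). The partner chains C1qb at 0.26 (SE 0.10, adjusted p = 0.14) and C1qc at 0.04 (SE 0.14, adjusted p = 0.9) did not pass. The hormone secretin (Sct) read 8.86, 7.94 and 9.06 against 10.26 to 11.38 (-2.09, SE 0.42, adjusted p = 0.015), or -1.75 (adjusted p = 0.071) without replicate 2.

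The atrial myosin light chain Myl7 had the largest fall, from 8.32, 11.12 and 10.84 in wild type to 6.28, 6.70 and 7.12 in mutant arrays (-3.39, SE 0.83, adjusted p = 0.03). Its wild type arrays spread widely, and its adjusted p reached 0.11 when 1 array was left out. Myl7 was also below wild type in APC mutant colon, where Olfm4 is intact (-2.20, SE 0.83). Between adjacent and APC mutant colon it stood at 0.18 (SE 0.83). Ms4a4b, a membrane protein of T cells (-2.29, SE 0.49), the epidermal gene Ly6g6c (-2.34, SE 0.60), the pyrimidine salvage enzyme Cda (-2.06, SE 0.38), Get3, which inserts tail-anchored proteins (-1.91, SE 0.39), the hepcidin relative Hamp2 (-1.90, SE 0.38), the sulfurtransferase Mpst (-1.86, SE 0.40) and the DNA junction nuclease Slx1b (-1.85, SE 0.29) also fell. Cda and Slx1b stayed called with each array left out in turn (adjusted p up to 0.044 and 0.027). The others did not, with a highest adjusted p of 0.076 for Ms4a4b, 0.13 for Ly6g6c, 0.063 for Get3, 0.070 for Hamp2 and 0.087 for Mpst. In bulk tissue a lower value for a gene of 1 cell type cannot be told apart from fewer such cells.

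Changes seen in several probe sets of a gene were weighed in a fit over all 34945 probe sets with 1 gene symbol, of which 3115 (8.91%) were called. Of the 936 called genes with 2 or more probe sets, 175 had another that passed in the same direction, 58 had another that passed in the opposite direction, and 7 had both. The probe sets kept as the brightest of their gene passed as higher in 1037 cases and as lower in 479. The 16752 others passed as higher in 456 and as lower in 1143. The balance of directions therefore depended on which probe set stood for the gene, and 86 genes had probe sets that passed both ways.

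At least 2 probe sets rose in 129 genes and at least 2 fell in 204. Firre, a nuclear long noncoding RNA of the X chromosome, rose in 2 of 4 probe sets, by 2.46 and 2.17, with 1.76 in the brightest (SE 0.64, adjusted p = 0.11). One of the 2 read 5.56, 6.07 and 5.51 in wild type and 8.11, 8.51 and 7.89 in Olfm4 mutant arrays, so the groups lay apart. The lymphoid transcription factor Bcl11b rose by 2.25 and 1.42 in 2 of 4, the ATP-gated channel P2rx7 by 1.48 and 1.42 in 2 of 3, and the Hedgehog transducer Smo by 1.59 and 1.20 in 2 of 3. The chromatin protein Hmga2 rose by 1.31 and 1.15 in 2 of 4, the kelch protein Klhl17 by 1.59 and 1.22 in 2 of 2, and Efs, a docking protein of focal adhesions, by 1.73 and 0.71 in 2 of 2. The lysosomal protease Ctsz fell in 3 of 3 probe sets, by 0.65, 0.85 and 0.81.

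In other genes the probe sets disagreed in direction or in size. Smarcc1, a core subunit of the BAF chromatin remodelling complex, read 6.77, 6.00 and 6.41 in wild type and 8.04, 8.82 and 8.01 in mutant arrays in its brightest probe set (1.90, SE 0.29). A second probe set read 8.75, 8.68 and 8.64 against 7.10, 6.66 and 7.01, a fall of 1.77 (SE 0.29, adjusted p = 0.0055), and another fell by 0.97. The array thus gives Smarcc1 no single direction, and its mean over probe sets stood at -0.09. Tcf7l2, a transcription factor of the Wnt pathway, fell by 3.32 and 3.22 in 2 probe sets, one of which read 8.74, 8.19 and 8.63 against 6.04, 4.21 and 5.34. The brightest Tcf7l2 probe set, at 11.74 or above on each of the 6 arrays, stood at -0.15 (SE 0.17, adjusted p = 0.66). The lipid kinase Pi4k2b fell in 2 probe sets, at -4.08 and -1.98, and stood at 0.47 in the brightest. Apc, intact in both groups, stood at 0.33 in its brightest probe set and at -1.29 in another (8.56, 8.58 and 8.13 against 7.58, 6.45 and 7.38), which was lowest in mutant replicate 2. Commd7 rose by 1.79 in 1 probe set and stood at -0.42 in the other.

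**Figure D3:**
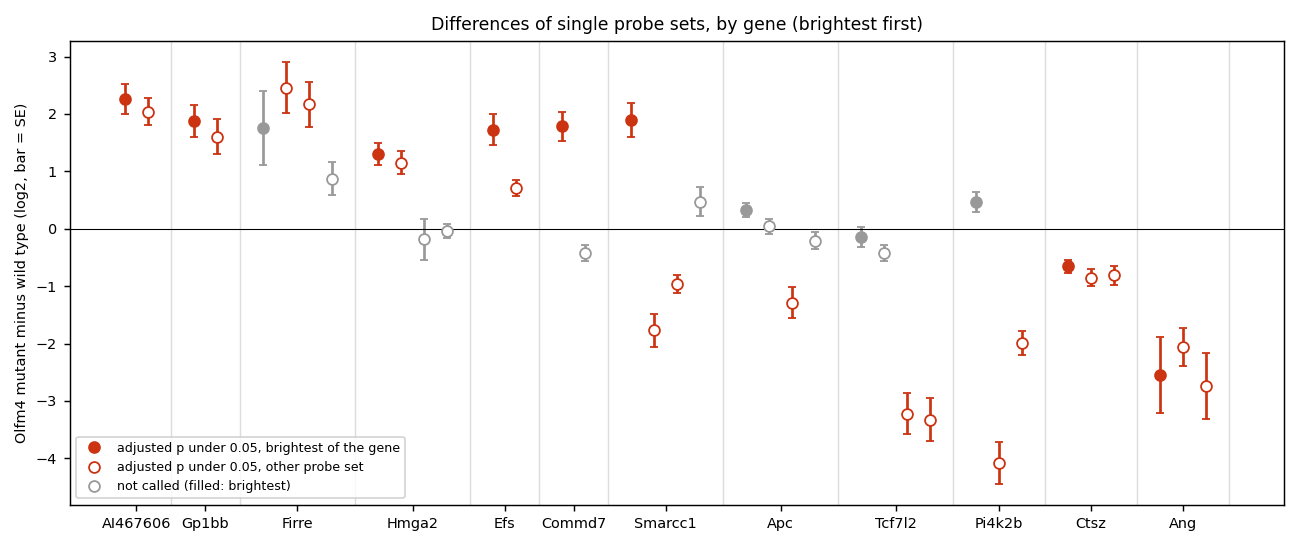
Log2 difference between Olfm4 mutant and wild type colon (points) with its SE (bars) for each probe set of 12 genes, brightest probe set first and filled, with red for an adjusted p under 0.05 over all probe sets. The probe sets of AI467606, Gp1bb, Firre, Efs, Ctsz and Ang share a direction, while those of Smarcc1, Pi4k2b and Apc do not. Those of Tcf7l2 all lie below 0 but differ in size, from -3.32 to -0.15.

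The genome around Olfm4 was examined by gene order. Of 641 measured genes on chromosome 14, 61 were called (9.52%), beside 7.92% of all genes. The share was 5.51% on the X chromosome and 10.1% on chromosome 16, which had the highest share. Among the 50 measured genes on each side of Olfm4, 14 of 100 were called, 10 higher and 4 lower. Over all genes 5.42% were higher and 2.5% lower. The counts were 4 of the 50 genes before that window, 41 of the 457 farther before and 2 of the 33 after it. The 14 genes included the retinoblastoma gene Rb1 (0.91, SE 0.15), the Rab GTPase activator Tbc1d4 (1.32, SE 0.23), the transcription factor Dach1 (1.28, SE 0.25) and, among those lower, the chaperone Sugt1 (-0.85, SE 0.16) and the crypt transcription factor Klf5 (-0.70, SE 0.16). With 1 array left out Rb1 and Tbc1d4 stayed called, while the adjusted p reached 0.058 for Dach1, 0.052 for Sugt1 and 0.10 for Klf5. Rb1 read 9.42, 9.28 and 9.85 in wild type and 10.45, 10.51 and 10.32 in mutant arrays, and Klf5 13.26, 13.07 and 13.05 against 12.43, 12.25 and 12.61. The groups did not overlap in either gene. Other probe sets of Dach1 and Klf5 kept the direction. A second probe set had the opposite sign, uncalled, in Rb1 (-0.12, SE 0.13), Tbc1d4 (-0.45, SE 0.19) and Sugt1 (0.17, SE 0.21). Obi1, among the 10 higher genes (0.74, SE 0.17), had another probe set that was called lower (-0.62, SE 0.14). Pcdh17, a protocadherin beside Olfm4 at 1 in gene order, did not pass (-2.16, SE 0.67, adjusted p = 0.067). It was named after its values were seen, which were 10.07, 8.17 and 7.72 in wild type and 7.47, 5.37 and 6.65 in mutant arrays, without overlap. Between adjacent and APC mutant colon it was lower (-2.76, adjusted p = 0.016). Among called genes of the chromosome, the 5 with the largest differences lay farther off, at -305 in gene order from Olfm4 for Ang, -80 for 4930480K23Rik, -314 for Ccnb1ip1, -315 for Ttc5 and -248 for Efs. The deleted gene and any sequence that is linked to it on the hybrid background cannot be told apart in this design.

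**Figure D4:**
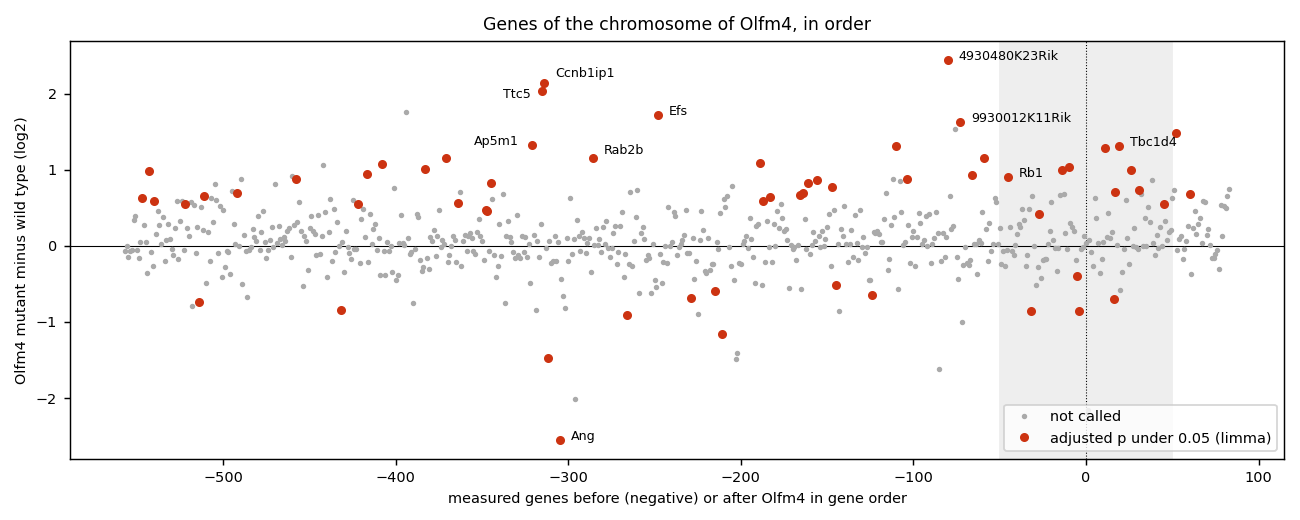
Log2 difference between Olfm4 mutant and wild type colon for 641 genes of chromosome 14 against their order from Olfm4 (dotted line), with called genes in red and the 50 genes on each side shaded. Called genes lie along the whole chromosome, 14 of 100 in the shaded window.

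Gene lists for the tissue and for the known roles of Olfm4 held few called genes. Of 677 genes in 46 lists, 17 were higher and 14 lower (4.58%, beside 7.92% of all genes), and their median difference was 0.00. No gene was called in 25 of the lists. Members called numbered at most 4 in a list.

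In the NOD and NF-kappaB list, the signalling steps assigned to Olfm4, 2 of 18 measured genes were called, 1 in each direction, a share near the 7.92% of all genes. The list median was 0.18. Rela, the p65 subunit, read 10.39, 10.57 and 10.33 in wild type and 9.74, 9.18 and 9.68 in Olfm4 mutant arrays (-0.89, SE 0.18, adjusted p = 0.017), and Ikbkg, the scaffold of the IKK complex, rose by 0.93 (SE 0.19, adjusted p = 0.015). Each lost its call without replicate 2 (adjusted p = 0.073 and 0.063). Nod1 read 9.72, 9.38 and 8.998 against 9.72, 10.10 and 9.95 and did not pass (0.55, SE 0.16, adjusted p = 0.056). The feedback genes Nfkbia at -0.10 (SE 0.09) and Tnfaip3 at 0.24 (SE 0.16) did not pass either, and 0 of 21 cytokine and chemokine genes were called (median 0.06). Nod2, Ripk2 and Nfkb1 were not analysed here.

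Of 14 cathepsins 2 were lower and 0 higher (14.3%, beside 7.92% of all genes, median -0.11). Cathepsin C (Ctsc), the protease that Olfm4 is described to inhibit, lay from 11.22 to 11.45 in wild type and from 11.18 to 11.32 in mutant arrays (-0.10, SE 0.12, adjusted p = 0.65). Ctsa, a lysosomal carboxypeptidase, was 0.88 lower (SE 0.20, adjusted p = 0.024) and Ctsz 0.65 lower (SE 0.11, adjusted p = 0.0093). Without mutant replicate 2 Ctsa did not pass (adjusted p = 0.10), while Ctsz did (0.045). Of 13 cadherins the photoreceptor-type Cdhr1 was higher (1.16, SE 0.27, adjusted p = 0.028, or 0.11 without replicate 2) and the protocadherin Pcdh1 lower (-0.96, SE 0.17), while Cdh1 stood at -0.13 (SE 0.10, adjusted p = 0.46). The olfactomedin family had 1 of 11 members called, Adgrl2, a latrophilin receptor (0.58, SE 0.16, adjusted p = 0.04, or 0.15 without replicate 2).

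Some crypt genes were called. Of 17 crypt base stem cell genes 3 were higher and 0 lower (17.6%, beside 7.92% of all genes, median 0.29). The 3 were Lrig1, a brake on EGF receptors (0.98, SE 0.17), the ephrin receptor Ephb3 (0.94, SE 0.21) and Znrf3, a ubiquitin ligase that removes Wnt receptors (0.93, SE 0.23). Of the list 1 gene was called without mutant replicate 2, 1 without replicate 3 and 0 with the bacterial RNA covariate. Lrig1 read 9.85, 9.22 and 9.77 in wild type and 10.38, 10.73 and 10.67 in mutant arrays and stayed called without any 1 array (adjusted p up to 0.049). Ephb3 and Znrf3, which also stand among the 21 Wnt targets, did not (adjusted p up to 0.093 and 0.11). The stem cell receptor Lgr5 read 6.36, 5.99 and 5.72 against 5.28, 5.40 and 5.43 (-0.65, SE 0.23, adjusted p = 0.097). No other Wnt target and none of the 23 proliferation genes was called.

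Differentiated epithelium held few called genes, in lists too small to tell such counts from the 7.92% of all genes. The water channel Aqp8 was lower (-0.84, SE 0.22, adjusted p = 0.039) among 21 absorptive genes, with a list median of -0.13, and lost its call without replicate 2 (adjusted p = 0.16). Sct was the 1 of 16 enteroendocrine genes, and 0 of 16 goblet cell genes passed, with Muc2 at -0.62 (SE 0.45) and Spdef, the goblet cell transcription factor, at -0.94 (SE 0.42, adjusted p = 0.19). Of 19 epithelial antimicrobial genes 0 were called. The lectins Reg3b and Reg3g stood at -1.78 (SE 1.12) and -1.72 (SE 1.19), with Reg3g at 5.56, 9.73 and 9.48 in wild type and from 6.41 to 6.69 in mutant arrays.

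Immune lists held few called genes, to be read beside the 7.92% of all genes that were called. In T cell, B cell, neutrophil, mast cell and both MHC lists 0 genes were called. Each of these lists held from 9 to 13 measured genes, too few by itself to tell 0 from that share. The plasma cell list held Mzb1 (-1.01, SE 0.27, adjusted p = 0.04, or 0.16 without mutant replicate 2) and the macrophage list C1qa. Of 21 interferon response genes 20 stood below 0 with a median of -0.70, yet 0 were called. Their mean level was 8.22, 11.05 and 9.59 in the wild type arrays and 8.44, 9.27 and 8.96 in the mutant arrays, so wild type replicate 2 was the highest of the 6 and replicate 1 the lowest. Ifit1, for example, read 7.93, 12.73 and 11.41 against 8.69, 10.71 and 10.26. The neutrophil calprotectin gene S100a8 read 5.66, 6.57 and 6.90 against 8.75, 6.80 and 8.11 (1.51, SE 0.92, adjusted p = 0.34).

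Markers of the other layers of the wall also spread widely among the wild type arrays. Their counts of called genes are to be read beside the 7.92% of all genes. Of 16 smooth muscle genes 0 were called, with mean levels of 12.76, 11.28 and 11.47 in wild type and from 11.93 to 12.01 in Olfm4 mutant arrays. Enteric neuron and glia genes lay at 9.27, 7.40 and 7.97 against 8.16 to 8.41, with 0 of 15 called, and adipocyte genes at 7.08, 7.37 and 8.87 against 7.92 to 8.36, with 1 of 10 called. The mutant arrays thus fell inside the wild type range in these 3 lists. They lay just above it for genes of the interstitial cells of Cajal, the gut pacemaker cells. These stood at 10.59, 10.89 and 10.60 against 10.15 to 10.58, with 0 of 5 called. Means of some other lists lay apart too. Absorptive genes stood at 12.36 to 12.41 in mutant and 12.42 to 12.74 in wild type arrays, and enteroendocrine genes at 9.21 to 9.36 and 9.48 to 9.70. Mesothelium genes lay at 8.22, 7.83 and 8.03 in mutant and 7.83, 6.83 and 7.82 in wild type arrays, with 0 of 6 called. The part of tissue makeup in the called genes was not tested.

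Other lists held single changes, to be read beside the 7.92% of all genes that were called. Of 17 clock genes 2 were higher and 0 lower (median 0.32): the output regulator Dbp (1.66, SE 0.43, adjusted p = 0.036) and Per3 (1.47, SE 0.31, adjusted p = 0.02), with Per2 at 1.18 (SE 0.43, adjusted p = 0.11). Per3 read 9.52, 8.97 and 8.68 in wild type and 10.45, 10.61 and 10.52 in mutant arrays, and both calls ended without mutant replicate 2 (adjusted p = 0.078 for Per3 and 0.13 for Dbp). Of 20 immediate early genes Fosb (1.93, SE 0.53) and Klf2 (1.08, SE 0.25) were higher, and neither passed after cyclic loess or without mutant replicate 2 or 3. In the BAF complex 3 of 25 genes were higher and 1 lower, or 2 and 5 after cyclic loess. Besides Smarcc1 these were Brd9 (0.57, SE 0.11), Arid2 (0.50, SE 0.13) and the lower Pbrm1 (-0.84, SE 0.24), none of which stayed called with each array left out (adjusted p up to 0.063, 0.13 and 0.17). In cholesterol synthesis Fdps (-1.72, SE 0.43) and the regulator Srebf2 (-0.83, SE 0.21) were lower and 0 of 14 higher. Both calls ended without mutant replicate 2 (adjusted p = 0.11 and 0.14) and without replicate 3 (0.061 and 0.062). Of 26 oxidative phosphorylation genes Uqcrc1 was lower (-0.98, SE 0.18, adjusted p = 0.01).

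The 20 genes called with the bacterial RNA covariate were singled out after their values were seen, and 18 of them were higher. Ap5m1, a subunit of an adaptor complex of late endosomes on chromosome 14, read 7.76, 7.79 and 7.88 in wild type and 9.05, 9.29 and 9.08 in Olfm4 mutant arrays (1.33, SE 0.13, adjusted p = 0.002). Amer1, a membrane anchor of Apc in Wnt signalling, read 10.05, 9.77 and 9.93 against 10.98, 11.02 and 11.08 (1.11, SE 0.12), and Tigar, a fructose bisphosphatase induced by p53, read 10.64, 10.88 and 10.80 against 11.77, 11.61 and 11.86 (0.97, SE 0.12). In these 3 genes both groups were tight and did not overlap. With the covariate the differences were 1.27, 1.10 and 1.03, each at an adjusted p of 0.044. The 2 lower genes were Hcst and the nuclear import receptor Kpna2 (-0.58, SE 0.16).

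Loss of Olfm4 was also measured on the APC mutant background, in arrays that enter the comparison above only through the pooled spread. Each gene has the same SE in both contrasts, so a gene with a small spread is favoured in both. The calls of the 2 contrasts are therefore not independent. Between adjacent and APC mutant colon 3154 genes (17.3%) were called, 1798 higher (9.88%) and 1356 lower (7.45%). Of the 1440 genes, 1385 (96.2%) had the same sign there, against 70.0% of all genes. Called in the same direction in both were 800 genes, 478 higher and 322 lower, which is 55.6% of the 1440 and 25.4% of the 3154, and 3 were called in opposite directions. Of the 209 genes called in each of those models, 202 kept the sign and 139 were called in both. The adjacent arrays also had the larger bacterial RNA difference, from 3.91 to 4.45 against 1.93 to 2.32 in APC mutant arrays, and a model with that covariate called 0 genes in that contrast. The adjacent tissue beside a tumour and the loss of Olfm4 cannot be told apart in that contrast, and 2 of its 3 adjacent arrays share an animal number.

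Sdr16c6 read 6.22, 5.12 and 6.92 in APC mutant and 8.30, 9.53 and 9.21 in adjacent colon (2.93, SE 0.44, adjusted p = 0.0019). Ccnb1ip1 read 3.82, 4.10 and 4.16 against 7.16, 7.33 and 7.74 (3.38, SE 0.38, adjusted p = 0.0011). Ang read 11.82, 11.04 and 11.12 against 6.96, 7.13 and 7.26 (-4.21, SE 0.67, adjusted p = 0.0023). In each the groups did not overlap and the direction was that of the Olfm4 mutant comparison. AI467606 was already at 11.44, 11.33 and 10.66 in APC mutant colon and stood 0.63 higher in adjacent colon (SE 0.26, adjusted p = 0.12).

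Of 18193 genes, 908 (4.99%) were higher and 530 (2.91%) lower in each of the 6 arrays without Olfm4 than in each of the 6 with it, tumours aside. The 3-prime minus 5-prime differences of Gapdh and Actb split these arrays alike. Gapdh was at most 0.720 with Olfm4 and at least 0.753 without, Actb at most 2.17 and at least 2.24. Array numbers 1 to 6 and 7 to 12 split them too. The bacterial RNA difference overlapped slightly, at most 2.32 with Olfm4 and at least 2.29 without. Genotype, the Gapdh and Actb differences and array number cannot be told apart here. The widest gap was that of Ccnb1ip1, with 4.85 as the highest array with Olfm4 and 6.23 as the lowest without it. The long noncoding RNA 9930012K11Rik followed with 7.39 and 8.44 and 4930480K23Rik with 6.48 and 7.47, all 3 on chromosome 14, which holds 3.52% of genes. Next came Commd7 on chromosome 2, Gm26760 on chromosome 15 and Gp1bb on chromosome 16, with gaps of 0.97, 0.85 and 0.81. Rab2b, a Golgi GTPase of chromosome 14, and Osgin2, on chromosome 4, had gaps of 0.80 and 0.70. Their differences from wild type were 1.16 (SE 0.17) and 1.20 (SE 0.16). Among lower genes the widest gaps were those of Hcst at 0.84, AI987944 at 0.72, the chromatin protein Hmgb2 at 0.70 and Itgb6 at 0.66. The genes of this paragraph were chosen after their values were seen.

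**Figure D5:**
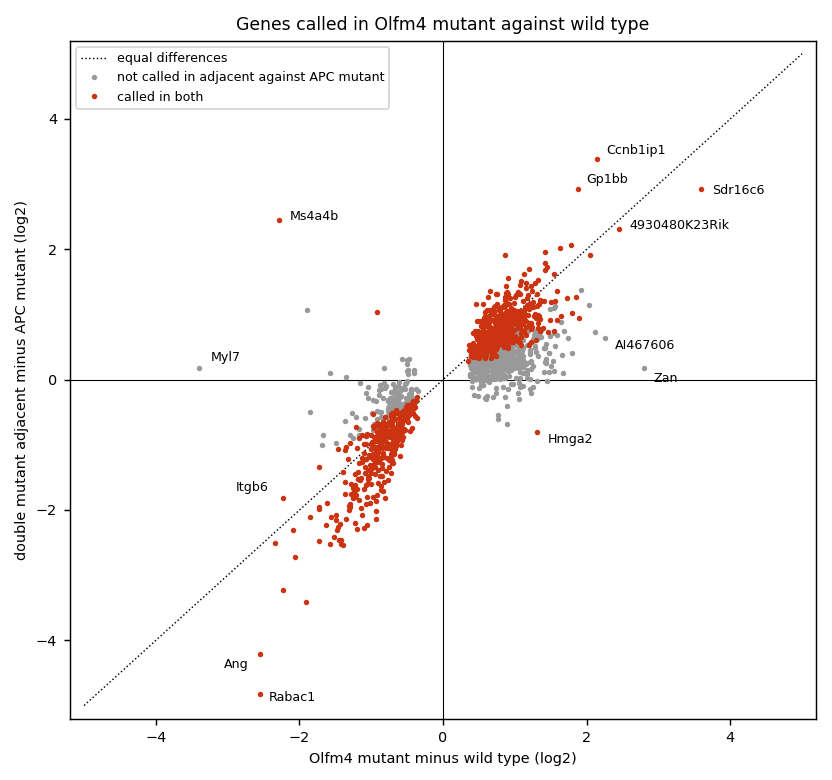
Log2 difference between double mutant adjacent and APC mutant colon against that between Olfm4 mutant and wild type colon for the 1440 genes called in the latter, with the genes called in both in red. Most points lie in the quadrants of equal sign (1385 genes), with Ms4a4b and Hmga2 among the exceptions.

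The interaction, the difference between the effects of Olfm4 loss in the 2 backgrounds, was called in 0 of 18193 genes by limma, with 1901 at an unadjusted p under 0.05 and a lowest adjusted p of 0.078. The effect of the APC mutation alone, from the same wild type arrays, was called in 0 genes, with 1324 at an unadjusted p under 0.05. Sdr16c6 stood 1.79 and AI467606 1.48 above wild type in that comparison, against 3.60 and 2.26 in Olfm4 mutant colon. Ccnb1ip1 stood at -0.17 and Gp1bb at 0.07 there. These comparisons share their wild type arrays.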

How the data were processed

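RNA of 15 colon samples was measured on 1 array each. The deposited values are log2 levels that the authors obtained by RMA, per the submitters' processing notes, in which Partek 6.5 is also named. RMA gives all arrays a common distribution and so hides a shift of most genes in 1 direction. The unit rests on the values, which run from 2.56 to 14.96. Of 45101 probe sets 34945 had 1 gene symbol, and the one with the highest mean over 15 arrays stood for each of 18193 genes. Limma 3.58.1 in R 4.3.3 fitted 5 group means to all arrays, with Benjamini-Hochberg adjustment over all genes (over all probe sets for values of single probe sets) and SE from the model. On simulated data with 200 changed genes it recovered 55% of those changed by 1 and 95% of those changed by 2 on the log2 scale, with 8 false calls. The simulated arrays had independent noise and no 3-prime minus 5-prime difference between groups. They therefore do not measure the false calls of the real comparison. Alternatives changed the probe set per gene, normalization, filter, prior, arrays, weights and covariates. Named genes were the targeted gene and its family, the 15 largest called changes each way, changes in several probe sets, called genes near Olfm4, called list members and the widest gaps between arrays with and without Olfm4. Members and lists were chosen with earlier results of these data known.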

Additional observations from a re-analysis of the deposited data

Results flagged for a closer look

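In 4 of the 116 named genes the arrays with and without Olfm4 did not overlap in either background and the direction was opposite in the 2. Olfm4 mutant and wild type arrays did not overlap in 27% of all 18193 genes, and part of the 116 were named for that trait. The share of all genes with opposite directions of this kind was not counted, so the 4 cannot be set against it. None of the 4 interactions passed adjustment over all genes by limma. Ms4a4b differed by 4.74 (SE 0.69, adjusted p = 0.11), as it was lower in Olfm4 mutant than wild type colon (-2.29) and higher in adjacent than APC mutant colon (2.46). Its APC mutant arrays, at 4.65, 4.49 and 4.35, were themselves below wild type. Hamp2 differed by 2.97 (SE 0.53, adjusted p = 0.23), from -1.90 to 1.08. Hmga2 differed by -2.10 (SE 0.28, adjusted p = 0.078), from 1.31 to -0.80, and Pttg1 by -1.30 (SE 0.29, adjusted p = 0.32), from 0.76 to -0.54.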

How the results depend on the processing

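No paired analysis was possible because replicate numbers were given in accession order and do not pair samples. The count of 1440 called genes ran from 279 to 2236 with 1 array left out (200 to 1700 higher, 63 to 536 lower). It was 33 with only the 6 arrays in the model (28 higher, 5 lower), 187 with the 9 single-genotype arrays (153 higher, 34 lower), 20 with the bacterial RNA covariate (18 higher, 2 lower), 0 with the Gapdh and Actb covariate (0 higher, 0 lower) and 2779 with array weights (2053 higher, 726 lower). Genes called in each model with 1 array left out and after cyclic loess numbered 209. The mean of all probe sets gave 484 higher genes, the most variable probe set 1157 lower, and cyclic loess 533 higher and 793 lower. Between adjacent and APC mutant colon the count was 0 with either covariate and ran from 1578 to 3634 with 1 array left out, and the interaction had 1 gene after cyclic loess and 0 to 93 with 1 array left out. The cause was not tested.

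In 1419 combinations of a called named gene and a setting, 840 stayed called in the same direction, 573 kept the direction without passing and 6 reversed. The values below include genes that were not called. With the mean of all probe sets the differences were -1.01 for Baz2a, -0.91 for Eprs, -0.53 for Mpp7, -0.076 for Obi1, -0.34 for Pfkp, -1.86 for Pi4k2b, -0.094 for Smarcc1 and -1.26 for Txnrd1. With the most variable probe set they were -1.29 for Apc, -1.73 for Baz2a, -1.72 for Eprs, -0.18 for Hmga2, -1.75 for Mpp7, -0.62 for Obi1, -1.41 for Pfkp, -4.08 for Pi4k2b and -2.36 for Txnrd1. Between adjacent and APC mutant colon the bacterial RNA covariate gave -0.15 for Acvr1c, 0.46 for C1qa, 0.15 for Rabac1, 0.47 for Rex1bd and -0.18 for Smarcc1. The Gapdh and Actb covariate gave 0.57 for C1qa, 0.30 for Itgb6, 0.29 for Rabac1, 0.61 for Rex1bd, 0.048 for Sct and -0.40 for Smarcc1.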

Other observations

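Tumours of double mutant mice, which enter no comparison above except through the pooled spread, also lack Olfm4. Ccnb1ip1 lay from 6.32 to 8.07 in the 3 tumour arrays, Gp1bb from 9.85 to 10.03 and Rab2b from 10.39 to 10.70, each above every array with Olfm4. Hcst lay from 5.67 to 5.99 and Itgb6 from 6.37 to 6.81, each below every such array. Rimbp2, raised by 1.07 in Olfm4 mutant colon (SE 0.18), lay from 6.18 to 6.97 in tumours, below the arrays with Olfm4 (7.46 to 7.76). In all, 676 of 18193 genes were higher and 429 lower in each of the 9 arrays without Olfm4 than in each of the 6 with it. The tumour arrays also had the largest bacterial RNA differences of the series, from 4.73 to 5.22, against at most 2.32 with Olfm4. Genotype, tissue and this measure cannot be told apart here.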
